A study of Bos taurus with 6 samples.

Results

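The mTOR kinase adjusts protein synthesis and growth to nutrients and hormones, and in the mammary gland it is known for its link to milk protein synthesis. The kinase works in a pair of complexes. In mTORC1 it is held by *RPTOR* (raptor) and phosphorylates S6 kinase and the 4E-BP proteins, which control the start of translation, and in mTORC2 it is held by *RICTOR* and phosphorylates AKT. The TSC complex restrains mTORC1 by switching off the small GTPase *RHEB*, and AKT relieves this restraint. Most of this control acts through phosphorylation of the proteins, and the libraries measured mRNA.

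The genes described are 10 rows of the raw count table, chosen by name: *MTOR*, *RPTOR*, *RICTOR* and *DEPTOR* of the mTOR complexes, *TSC1*, *TSC2* and *RHEB* of the switch in front of mTORC1, the upstream kinase *AKT1*, and the translation regulators *RPS6KB1* and *EIF4EBP1*. All 10 were among the 15693 genes of the table, and 9 of them passed the filter on low counts. *DEPTOR* did not pass it.
The RNA came from mammary epithelial cells (bMECs) of a Chinese Holstein cow, labelled with the lactation period, in 3 ACADSB-/- libraries and 3 WT libraries. *ACADSB* encodes a mitochondrial acyl-CoA dehydrogenase of isoleucine breakdown. The ACADSB-/- cells had been transfected with a plasmid carrying Cas9, green fluorescent protein and a guide against *ACADSB*, sorted for fluorescence and plated as single cells, while WT are the unedited control bMECs, for which no sort is described. A medium with serum, hydrocortisone and insulin is described for the bMECs, and insulin acts upstream of AKT. The plates of sorted single cells held more serum than that medium. The paper does not state whether both groups had the same medium when RNA was taken. The study describes the ACADSB-/- line as a single clone, grown from 1 sorted cell, so what is particular to that clone and the loss of *ACADSB* cannot be told apart. The submitted design can also be read as 3 knockout lines, and the sources do not settle whether the libraries of a group, made from pooled RNA, came from separate cultures. If they did not, the p-values reflect the spread of these libraries alone, possibly a technical one.
The libraries held 30550275 to 34983965 counts. Reads of *ACADSB* itself numbered 9, 7 and 15 in ACADSB-/- cells, against 38, 34 and 20 in WT cells, which is −1.60 on the log2 scale (standard error, SE, 0.459 and adjusted p = 0.00357 from edgeR). In FPKM (a level scaled to gene length and library size) it was low in both groups, at 0.124 to 0.261 in ACADSB-/- and 0.341 to 0.619 in WT libraries. The paper also reports a frameshift deletion at the guide site, and less *ACADSB* mRNA by PCR and less protein in the edited cells. Of the mammary markers, the keratins *KRT5*, *KRT8* and *KRT18* stood at 1333 to 2363 FPKM in every library, while all 5 milk protein genes were at or near 0 in both groups. The 5 luminal markers summed to 3060 to 3330 FPKM in ACADSB-/- bMECs and 3950 to 4070 FPKM in WT bMECs, and the 3 basal markers to 2140 to 2250 FPKM in ACADSB-/- bMECs and 1890 to 1990 FPKM in WT bMECs. Members of both lists went both ways: *KRT8* (log2 fold change −0.19) and *KRT18* (−0.56) were lower while *EPCAM* (0.60) and *CDH1* (0.42) were higher, and *KRT5* (0.16) was higher while *KRT14* (−0.92) was lower. *KRT19* and *TP63* did not pass the test. The fibroblast list summed to 597 to 624 FPKM in ACADSB-/- bMECs and 498 to 536 FPKM in WT bMECs, nearly all of it from *DCN*, with *COL1A1*, *COL1A2*, *COL3A1* and *LUM* under 1 FPKM in every library. The endothelial, immune and adipocyte lists summed to at most 3.12 FPKM in any library, with *PTPRC* and *CDH5* at 0 in all of them. The part of these marker differences in the results was not tested. In bulk RNA, fewer cells of a type and less RNA per cell cannot be told apart.

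Of the 9 tested genes, *RICTOR* and *TSC1* were higher in ACADSB-/- bMECs, *EIF4EBP1* and *AKT1* were lower, and *MTOR*, *RPTOR*, *TSC2*, *RHEB* and *RPS6KB1* did not pass the test. *EIF4EBP1* stood at 51.7% of its WT level and *RICTOR* at 1.59-fold, and these were the largest changes of the 9. Tests were edgeR's quasi-likelihood test on the counts with Benjamini-Hochberg adjustment over all 13720 tested genes, and a gene is called higher or lower at an adjusted p under 0.05. Sizes given after rose or fell are on the log2 scale. The count of 4 genes past the test is to be read beside all tested genes, of which 58.2% passed, 29.7% higher and 28.6% lower. The median absolute log2 fold change was 0.13 over the 9 genes and 0.31 over all tested genes. The libraries of both groups did not overlap for 4 of the 9 genes, where this held for 63.6% of all tested genes. None of the 9 reached a change of 2-fold, which 10.2% of tested genes did beside an adjusted p under 0.05.

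**Figure D1:**
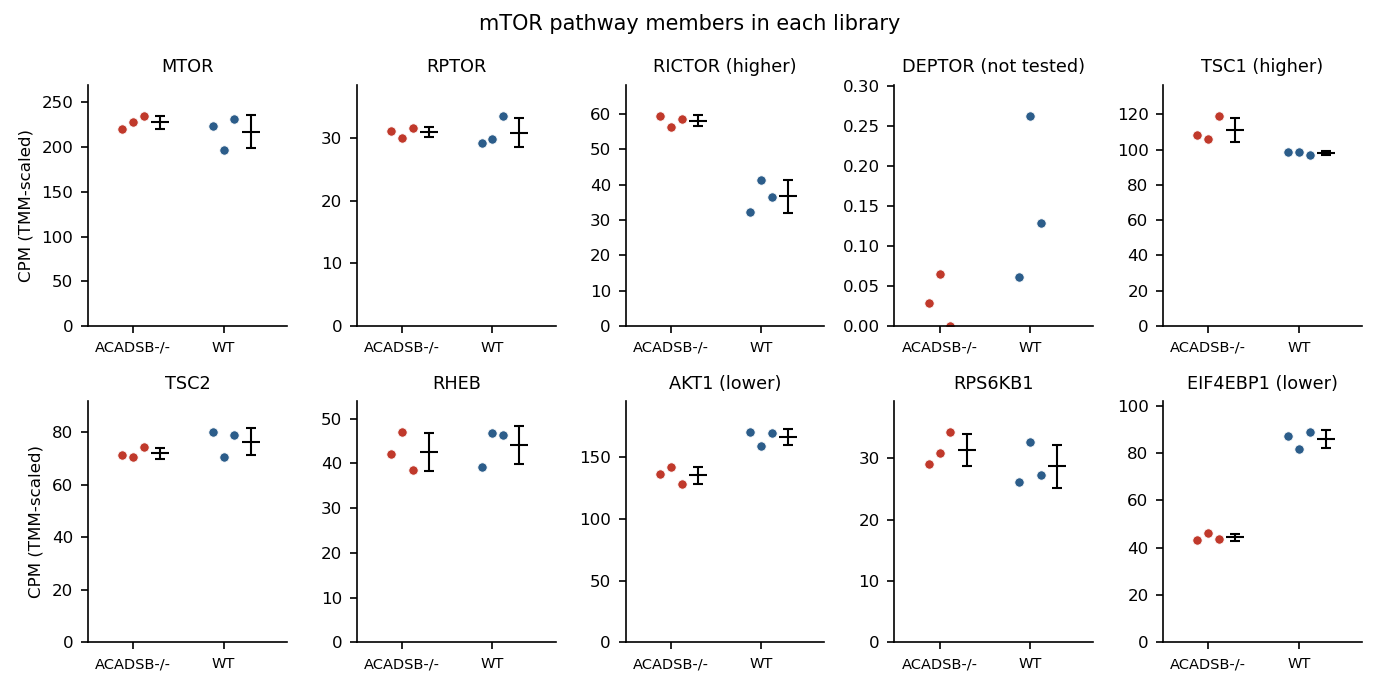
CPM (counts scaled to library size by TMM) of the 10 genes in each library, with 1 point per library, ACADSB-/- in red and WT in blue, and the mean ± SD (n = 3) as black bars, left out for *DEPTOR*. The points of the groups are apart for *EIF4EBP1*, *RICTOR*, *AKT1* and *TSC1* and overlap for the others.

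Within mTORC2, *RICTOR* was higher while the kinase itself was not past the test. Levels per library are in CPM, counts scaled to the size of the library. *RICTOR*, the scaffold that defines mTORC2 (chromosome 20, 35506867 to 35644737, plus strand, in the coordinates of the count table, whose build is not given), had 59.4, 56.3 and 58.6 CPM in ACADSB-/- libraries and 32.2, 41.3 and 36.4 CPM in WT libraries. Every ACADSB-/- library was above every WT library, and WT replicate 2 was the WT library nearest to them. The log2 fold change was 0.67 (SE 0.0762, 95% interval 0.51 to 0.82, adjusted p = 1.29e-08 from edgeR), and 21.2% of tested genes changed by at least as much in either direction. Its call held in all 17 alternative settings, with log2 fold changes of 0.49 to 0.75, the lowest when the trend with gene length was removed.
*MTOR*, the kinase (chromosome 16, 43429751 to 43553469, plus strand), had 220.2, 228 and 235 CPM in ACADSB-/- libraries and 224, 196 and 232 CPM in WT libraries. The groups overlapped, with WT replicate 2 the lowest of all 6 libraries. Its log2 fold change was 0.07 (95% interval −0.05 to 0.18, adjusted p = 0.311 from edgeR). The gene model of *ANGPTL7* overlaps that of *MTOR* on the other strand, and had at most 0.0121 FPKM in any library.
*RPTOR*, the scaffold that defines mTORC1 and brings it its substrates (chromosome 19, 52526210 to 52849550, minus strand), had 31.2, 30.1 and 31.6 CPM in ACADSB-/- libraries and 29.2, 29.9 and 33.6 CPM in WT libraries. This was a log2 fold change of 0.0024 (95% interval −0.16 to 0.16, adjusted p = 0.981 from edgeR), and 99.6% of tested genes had a larger or equal change. *RPTOR* thus lay within the spread of the libraries.
The scaffolds were also compared within each library, per gene length. The FPKM ratio of *RPTOR* to *RICTOR* was 0.989, 1.00 and 1.02 in ACADSB-/- libraries, against 1.71, 1.36 and 1.74 in WT libraries, without overlap. The ratios here are given as descriptions with no test, and with 3 libraries a group an exact permutation test could not go below p = 0.10.
*DEPTOR*, an inhibitor that binds mTOR in both complexes (chromosome 14, 84022107 to 84142004, plus strand), was counted 1, 2 and 0 times in ACADSB-/- libraries, against 2, 8 and 4 times in WT libraries. In FPKM it stood at 0.0436 or less in ACADSB-/- and 0.174 or less in WT bMECs, near the floor of the measurement in both. The summed counts of 3 and 14 give a ratio of 0.207 (ACADSB-/- over WT, exact 95% interval 0.0381 to 0.741), which covers counting error only, and the groups overlapped.

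In the switch in front of mTORC1, only *TSC1* passed the test, and by a small step. *TSC1*, the hamartin subunit that stabilizes the TSC complex (chromosome 11, 103217696 to 103269893, minus strand), had 108, 106 and 119 CPM in ACADSB-/- libraries and 98.5, 98.9 and 97.1 CPM in WT libraries. The groups did not overlap, with ACADSB-/- replicate 3 above the rest. The log2 fold change was 0.18 (SE 0.0555, adjusted p = 0.00691 from edgeR). Without ACADSB-/- replicate 3 it was 0.13 (adjusted p = 0.0571), and with the trend on gene length removed it was −0.0044 (adjusted p = 0.95), so the call rests on that library and on the treatment of length.
*TSC2*, the tuberin subunit that carries the GTPase-activating domain (chromosome 25, 1605967 to 1636884, plus strand), had 71.2, 70.4 and 74.3 CPM in ACADSB-/- libraries and 79.8, 70.3 and 79.0 CPM in WT libraries. WT replicate 2 lay below all ACADSB-/- libraries and the other WT libraries above them, and the log2 fold change was −0.09 (95% interval −0.21 to 0.04, adjusted p = 0.231 from edgeR). *TSC2* passed the test without WT replicate 2 (−0.15, adjusted p = 0.0282) and with the length trend removed (−0.25, adjusted p = 0.000616). In the other 15 alternative settings *TSC2* did not pass. The FPKM ratio of *TSC1* to *TSC2* was 0.945, 0.933 and 0.995 in ACADSB-/- libraries, above the 0.766, 0.873 and 0.763 of WT libraries.
*RHEB*, the GTPase that activates mTORC1 at the lysosome (chromosome 4, 115227275 to 115279842, minus strand), had 42.2, 46.9 and 38.6 CPM in ACADSB-/- libraries and 39.2, 46.8 and 46.3 CPM in WT libraries. The groups overlapped fully, with a log2 fold change of −0.05 (95% interval −0.22 to 0.11, adjusted p = 0.601 from edgeR).

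**Figure D2:**
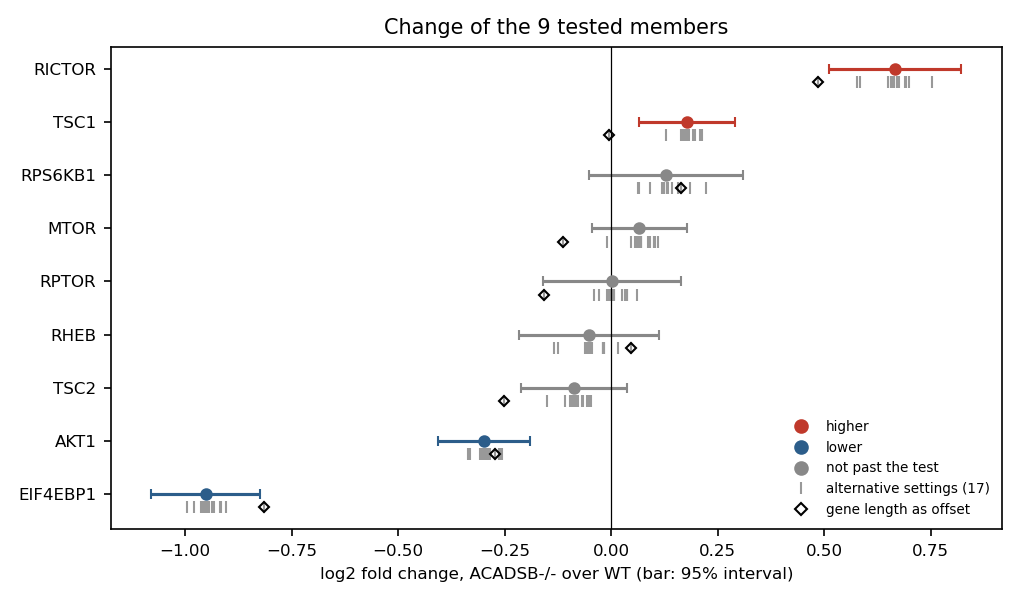
Log2 fold change of ACADSB-/- over WT for the 9 tested genes, with 95% intervals, coloured by whether the gene was higher, lower or not past the test; grey ticks are the 17 alternative settings and open diamonds the setting with gene length as an offset. The intervals of *EIF4EBP1*, *AKT1*, *TSC1* and *RICTOR* lie off 0, and the diamond of *TSC1* lies at 0.

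*AKT1*, the kinase that carries the insulin signal toward *TSC2* and is itself a target of mTORC2, was lower in ACADSB-/- bMECs (chromosome 21, 71167769 to 71184673, minus strand). It had 136, 142 and 128 CPM in ACADSB-/- libraries and 170.2, 159 and 170.0 CPM in WT libraries, with no overlap. The log2 fold change was −0.30 (SE 0.053, adjusted p = 1.8e-05 from edgeR), or 81.4% of WT, and a change of this size or more was found in 52% of tested genes. The call held in all 17 alternative settings.
Its paralogue *AKT2* had 120.0, 118 and 113 CPM in ACADSB-/- libraries and 133, 114 and 132 CPM in WT libraries and did not pass the test (log2 fold change −0.11, adjusted p = 0.104), though it did without WT replicate 2 (−0.19, adjusted p = 0.003). In the other 16 alternative settings *AKT2* did not pass.

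Of the translation regulators, *EIF4EBP1* was lower and *RPS6KB1* did not pass the test. *EIF4EBP1* encodes 4E-BP1, which binds the cap-binding factor eIF4E and keeps it from starting translation until mTORC1 phosphorylates it (chromosome 27, 33176784 to 33199220, plus strand). It had 43.4, 46.2 and 43.5 CPM in ACADSB-/- libraries and 87.2, 81.6 and 88.7 CPM in WT libraries. The highest ACADSB-/- library lay far below the lowest WT library. The log2 fold change was −0.95 (SE 0.0621, 95% interval −1.08 to −0.82, adjusted p = 5.74e-14 from edgeR), and 11.9% of tested genes changed by at least as much. The call held in all 17 alternative settings, with log2 fold changes of −0.995 to −0.815.
*RPS6KB1*, the S6 kinase that phosphorylates ribosomal protein S6 and eIF4B (chromosome 19, 11176300 to 11212733, plus strand), had 29.1, 30.9 and 34.2 CPM in ACADSB-/- libraries and 26.2, 32.6 and 27.3 CPM in WT libraries. The groups overlapped through WT replicate 2, and the log2 fold change was 0.13 (95% interval −0.05 to 0.31, adjusted p = 0.215 from edgeR). Without that library it was 0.22 (adjusted p = 0.032 from edgeR), while in the other 16 alternative settings it did not pass the test. *RPS6KB2*, the second S6 kinase, had a log2 fold change of −0.06 (adjusted p = 0.429), and *RPS6KB1* made up 37.3%, 39% and 41.2% of the FPKM of the pair in ACADSB-/- libraries, against 34%, 38.4% and 35.6% in WT libraries.
Neither of the other 4E-BP genes was higher. *EIF4EBP2* had 62.5, 53.9 and 72.9 CPM in ACADSB-/- libraries and 64.8, 66.7 and 71.4 CPM in WT libraries (log2 fold change −0.10, adjusted p = 0.335), with overlapping groups. It passed the test without ACADSB-/- replicate 3 (−0.21, adjusted p = 0.0209) and stood at 0.0032 without ACADSB-/- replicate 2. *EIF4EBP3*, the least abundant of the 3, fell by 0.50 on the log2 scale (SE 0.161, adjusted p = 0.00938, and 0.0687 with the length trend removed), with 3.77, 4.21 and 4.01 CPM in ACADSB-/- libraries and 5.42, 6.01 and 5.45 CPM in WT libraries. Per gene length, *EIF4EBP1* fell to 47.9%, 52.5% and 44.4% of the summed 4E-BP FPKM in ACADSB-/- libraries, against 63.2%, 60.8% and 61.6% in WT libraries.

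**Figure D3:**
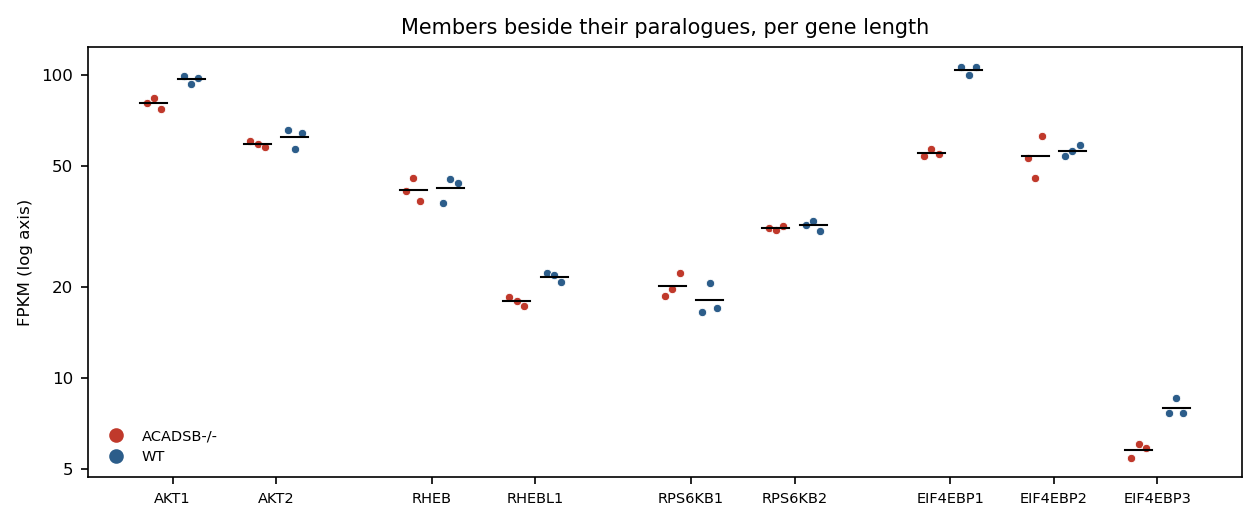
FPKM (log axis) of *AKT1*, *RHEB*, *RPS6KB1* and *EIF4EBP1* beside their paralogues named in the text, with 1 point per library and a line at the mean, ACADSB-/- in red left of WT in blue. *EIF4EBP1* lies near *EIF4EBP2* in ACADSB-/- bMECs and above it in WT bMECs.

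The partner of the 4E-BP proteins moved the other way. *EIF4E*, which encodes the factor that binds the mRNA cap and was picked after its values were seen, had 112, 112 and 112 CPM in ACADSB-/- libraries and 66.7, 95.7 and 78.7 CPM in WT libraries, for a log2 fold change of 0.48 (SE 0.11, adjusted p = 0.00437 from edgeR). The WT libraries were spread widely and all lay below the ACADSB-/- libraries. The FPKM ratio of *EIF4EBP1* to *EIF4E* was 0.785, 0.832 and 0.783 in ACADSB-/- libraries, against 2.64, 1.72 and 2.27 in WT libraries. Summed over the 3 4E-BP genes, the ratio to *EIF4E* was 1.64, 1.58 and 1.76 in ACADSB-/- libraries, against 4.18, 2.83 and 3.69 in WT libraries. Both ratios were lower in ACADSB-/- bMECs without overlap, and WT replicate 2 was again the WT library nearest to them.

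**Figure D4:**
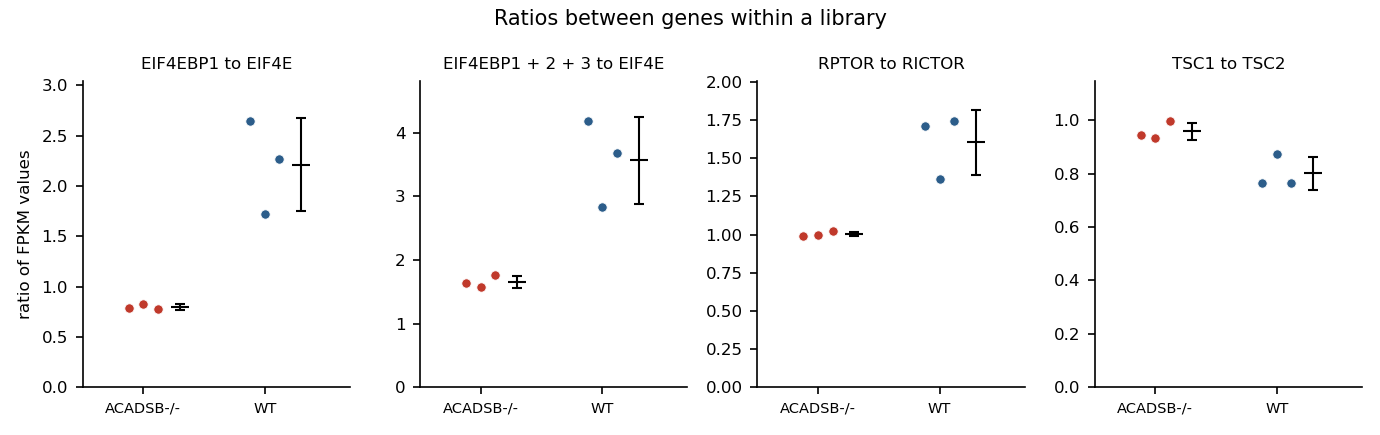
Ratios of FPKM values within each library, with 1 point per library, ACADSB-/- in red and WT in blue, and the mean ± SD (n = 3) as black bars. None of the 4 ratios overlaps between the groups, and the ratios of 4E-BP genes to *EIF4E* are the furthest apart.

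Per gene length, the order of the 10 genes was nearly the same in both groups. In ACADSB-/- bMECs, *AKT1* led with 80.9 ± 3.4 FPKM (SD, n = 3), followed by *EIF4EBP1* with 55.3 ± 1.66, *RHEB* with 41.8 ± 3.72, *MTOR* with 26.4 ± 1.05 and *RPS6KB1* with 20.2 ± 1.85 FPKM. In WT bMECs, *EIF4EBP1* led with 105 ± 3.77 FPKM, followed by *AKT1* with 97.2 ± 3.08, *RHEB* with 42.4 ± 4.03, *MTOR* with 24.6 ± 1.93 and *RPS6KB1* with 18 ± 2.29 FPKM. *AKT1* and *EIF4EBP1* thus changed places, and their library ranges did not overlap in either group. *TSC2* (12.6 ± 0.477 FPKM) and *TSC1* (12 ± 0.878) had overlapping ranges in ACADSB-/- bMECs and separate ones in WT bMECs (13 ± 0.82 and 10.4 ± 0.199). *RPTOR* (6.18 ± 0.214 FPKM) and *RICTOR* (6.16 ± 0.206) likewise overlapped in ACADSB-/- bMECs, while in WT bMECs *RPTOR* (6.02 ± 0.407) was above *RICTOR* (3.79 ± 0.493). *MTOR* mRNA was 4.10 to 4.41 times that of *RPTOR* in ACADSB-/- libraries and 3.81 to 4.46 times in WT libraries, with no difference beyond that spread.

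The genes around these 10 were taken from 13 lists of the pathway with 117 genes, of which 113 were tested. Among them were 41 with a higher level in ACADSB-/- bMECs, 34 with a lower level and 38 short of the threshold. Thus 66.4% passed, beside 58.2% of all tested genes, a share that includes genes with few counts. With the filter at a mean of at least 50 counts, 76 pathway genes passed, and 7445 of all 11810 genes then tested. The median log2 fold change was −0.04 over the lists and 0.0049 over all tested genes. Only 6 reached 2-fold, beside 10.2% of all tested genes, and all of them were higher: *SESN3*, *C4H7orf60*, *INPP4B*, *PIK3R3*, *PRKAB2* and *EIF2AK2*. The counts of each list below are to be read beside all tested genes, of which 29.7% were higher and 28.6% lower.
Genes of the complexes themselves moved by small steps. Of 4 genes for subunits and assembly factors of mTORC1, 3 were lower and 1 did not pass. *MLST8*, the subunit shared by both complexes, fell by 0.24 on the log2 scale (SE 0.0775, adjusted p = 0.00882). *TTI1*, which helps assemble mTOR and related kinases, fell by 0.20 (adjusted p = 0.0365), a call that 9 of 17 alternative settings ended. Among 3 mTORC2 genes, *PRR5* had 168, 168 and 150.4 CPM in ACADSB-/- libraries and 135, 136 and 136 CPM in WT libraries, a rise of 0.26 (adjusted p = 1.11e-04). *PRR5L*, its relative, fell by 0.26 (adjusted p = 0.00144), and *MAPKAP1* did not pass. *TBC1D7*, the third subunit of the TSC complex, fell by 0.39 (adjusted p = 2.42e-04), and *RHEBL1*, a relative of *RHEB*, fell by 0.30 (adjusted p = 0.00692, and 0.105 with the length trend removed).
The amino acid branch, in which Rag GTPases bring mTORC1 to the lysosome, had 8 higher genes, 2 lower ones and 3 short of the threshold among 13 tested (median log2 fold change 0.29), beside 29.7% higher and 28.6% lower over all tested genes. *FNIP1*, the folliculin partner that acts on *RRAGC* and *RRAGD*, had 42.0, 41.1 and 43.1 CPM in ACADSB-/- libraries and 23.4, 25.1 and 22.9 CPM in WT libraries, a rise of 0.82 (SE 0.0762, adjusted p = 1.57e-10). *LAMTOR3*, a subunit of the Ragulator anchor, rose by 0.66 (adjusted p = 1.5e-05). In GATOR and KICSTOR, which pass amino acid signals to the Rag GTPases, 1 gene was higher, 3 were lower and 8 did not pass. *SEC13*, which also serves the nuclear pore and vesicle coats, fell by 0.40 (adjusted p = 1.12e-07), and *KPTN*, a KICSTOR subunit, fell by 0.33 (adjusted p = 0.00367).
Of 9 sensors of nutrients and stress, 4 were higher, 1 was lower and 4 did not pass. *SESN3*, a sestrin, had 43.0, 41.2 and 42.4 CPM in ACADSB-/- libraries and 11.3, 13.8 and 10.6 CPM in WT libraries. Its rise of 1.82 (SE 0.0924, adjusted p = 1.37e-16) was the largest of all 113 genes. *C4H7orf60*, the bovine name of the S-adenosylmethionine sensor BMT2 (SAMTOR), rose by 1.03 (SE 0.165, adjusted p = 3.68e-06) at a low level, with 7.85, 7.86 and 7.19 CPM in ACADSB-/- libraries and 2.9, 4.6 and 3.71 CPM in WT libraries. *DDIT4* (REDD1), a stress-induced inhibitor that acts through the TSC complex and was picked after its values were seen, rose by 0.83 (SE 0.0735, adjusted p = 5.24e-11).

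**Figure D5:**
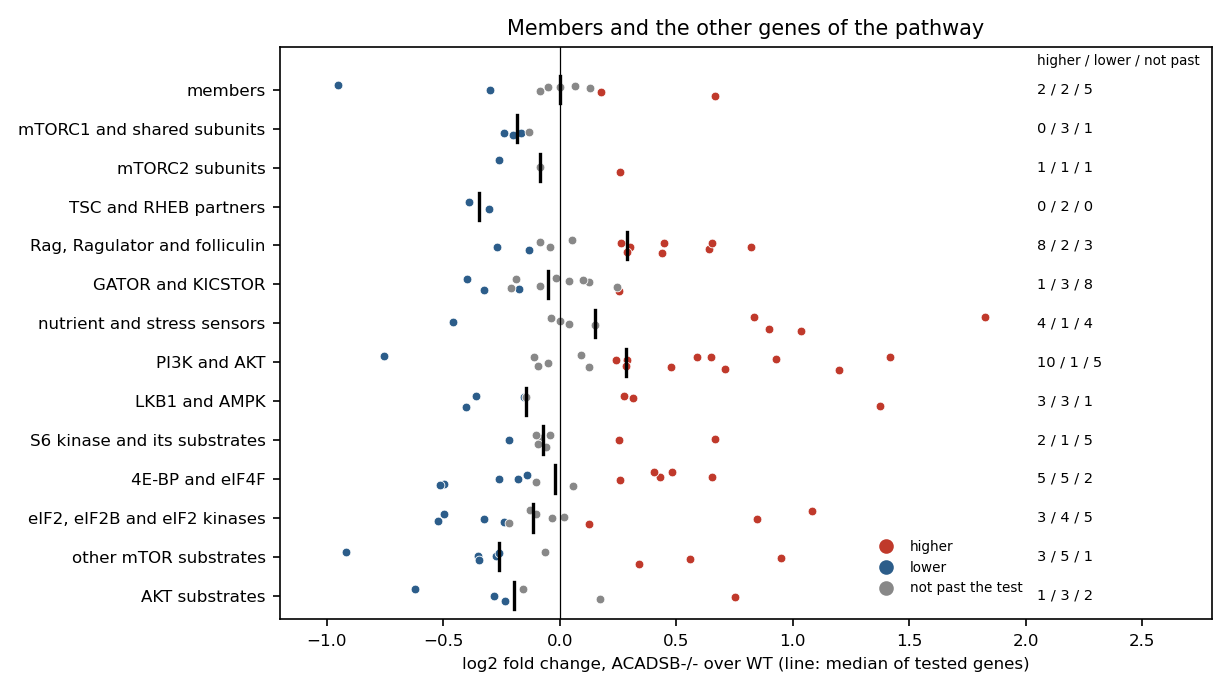
Log2 fold change of ACADSB-/- over WT for each tested gene of the 10 (top row) and of the 13 pathway lists, coloured by whether it was higher, lower or not past the test, with a line at the median and the counts at the right. PI3K and AKT (10 higher, 1 lower) and Rag, Ragulator and folliculin (8 higher, 2 lower) hold mostly higher genes.

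In front of *AKT1*, 10 of 16 genes of phosphoinositide 3-kinase signaling were higher, 1 was lower and 5 did not pass, with a median log2 fold change of 0.29, beside the same 29.7% and 28.6% of all tested genes. Genes on both sides of the pathway were among the higher ones. *INPP4B*, a phosphatase that removes the lipid signal on which AKT depends, had 33.4, 30.6 and 28.3 CPM in ACADSB-/- libraries and 11.5, 12.2 and 10.9 CPM in WT libraries, a rise of 1.42 (SE 0.0946, adjusted p = 9.94e-14). *PIK3R3*, a regulatory subunit of the kinase, rose by 1.20 (SE 0.228, adjusted p = 4.43e-05) at a low level of 4.11, 2.97 and 4.83 CPM in ACADSB-/- libraries and 1.86, 1.35 and 1.97 CPM in WT libraries.
Of 7 tested genes of LKB1 and AMPK, the energy sensor that restrains mTORC1, 3 were higher, 3 lower and 1 did not pass. *PRKAB2*, a scaffold subunit of AMPK, rose by 1.38 (SE 0.181, adjusted p = 2.14e-07), and *STRADA*, the pseudokinase that activates LKB1, fell by 0.40 (adjusted p = 3.05e-04).
Of 8 genes of S6 kinase and its substrates, 2 were higher, 1 was lower and 5 did not pass, among them *RPS6KB2*. *PDCD4*, an inhibitor of the helicase eIF4A that S6 kinase marks for destruction, had 78.6, 76.7 and 79.1 CPM in ACADSB-/- libraries and 45.0, 51.8 and 51.1 CPM in WT libraries, a rise of 0.66 (SE 0.0641, adjusted p = 3.52e-10). *POLDIP3* (SKAR), a substrate bound to newly spliced mRNA, rose by 0.25 (adjusted p = 1.01e-04).
The 12 tested genes of 4E-BP and eIF4F, the complex that *EIF4EBP1* restrains, comprised 5 higher, 5 lower and 2 that did not pass. *EIF4A1*, the main helicase of eIF4F, had 857, 875 and 847 CPM in ACADSB-/- libraries and 1238, 1233 and 1208 CPM in WT libraries, for a log2 fold change of −0.51 (SE 0.0446, adjusted p = 3.89e-11). *EIF4G2* (DAP5), a scaffold that works without eIF4E, rose by 0.65 (SE 0.047, adjusted p = 5.68e-13), with 1532, 1516 and 1591 CPM in ACADSB-/- libraries and 933, 1013 and 1006 CPM in WT libraries. *EIF4E*, *EIF4A1* and *EIF4G2* thus did not move together.
For eIF2, which brings the initiator tRNA and is the second main control point of initiation, 3 of 12 genes were higher, 4 were lower and 5 did not pass. These shares of 25% higher and 33.3% lower were near the 29.7% and 28.6% of all tested genes. *EIF2AK2* (PKR), the eIF2 kinase that senses double-stranded RNA, had 25.7, 23.4 and 25.7 CPM in ACADSB-/- libraries and 7.71, 13.9 and 13.7 CPM in WT libraries, a rise of 1.08 (SE 0.192, adjusted p = 9.47e-04). *EIF2S3*, the gamma subunit of eIF2, rose by 0.85 (SE 0.0556, adjusted p = 6.71e-14).
Among 9 tested genes of other mTOR substrates, 3 were higher, 5 lower and 1 did not pass. Over all tested genes, 29.7% were higher and 28.6% lower. *SGK1*, a kinase activated by mTORC2 and a known target of glucocorticoids, had 54.5, 60.9 and 56.4 CPM in ACADSB-/- libraries and 109, 109 and 106 CPM in WT libraries, for a log2 fold change of −0.92 (SE 0.0583, adjusted p = 3.22e-14). Its relative *SGK3* rose by 0.95 (SE 0.12, adjusted p = 7.29e-08), so the paralogues moved in opposite directions. Of 6 AKT substrates, 1 was higher, 3 were lower and 2 did not pass. *TBC1D4*, which holds glucose transporters inside the cell, rose by 0.75 (adjusted p = 1.03e-06), and *GSK3B*, a kinase of glycogen synthesis, fell by 0.62 (adjusted p = 6.84e-06). The *GSK3B* row has a model of only 427 bases and a numbered copy in the table, which may share its reads.

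Gene length moved with these results. Over all tested genes, the median log2 fold change was 0.14 in the longest of 5 equal classes of gene models (from 3871 bases), where 42.4% were higher, and −0.13 in the shortest class (up to 1248 bases), where 15.6% were higher. *MTOR*, *RPTOR*, *RICTOR*, *TSC1* and *TSC2* lie in the longest class, and *RHEB* and *EIF4EBP1* in the shortest. With this trend taken out, *RICTOR* remained higher (0.49) and *EIF4EBP1* (−0.82) and *AKT1* (−0.27) lower, so their calls did not depend on it.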

How the data were processed

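Paired reads were cleaned and aligned by the authors, who deposited raw counts per gene and FPKM values. Not given in the sources used here are the aligner, the counting tool and its use of strand, the genome build behind the coordinates, and the annotation. Bismark 0.12.5 stands in the submitters' processing notes, its role unstated. The deposited table's own fold changes and p-values were not used, nor were 3 columns of the FPKM table that match no sample.

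Counts were filtered by filterByExpr (minimum count 10, minimum total 15), which kept 13720 of 15693 genes, scaled by TMM (factors 0.978 to 1.02) and tested on the condition alone with edgeR 4.0.16 (quasi-likelihood, robust) in R 4.3.3. Standard errors are the log2 fold change over the square root of the F statistic. Alternatives used DESeq2 1.42.0 and limma 3.58.1, and figures matplotlib 3.10.9. Steps were tested on simulated counts. Levels between genes were compared by the authors' FPKM only. Named were all 10 genes, their paralogues, *ACADSB*, and the 2 largest changes past the test in each list. Outside this rule, *EIF4E* entered through its ratio, and *DDIT4* was picked after its values were seen. *SESN1*, in the same list as *DDIT4*, rose more (0.90 against 0.83 on the log2 scale). Results for some paralogues and pathway genes are not reported here. The 10 genes and the lists were chosen with earlier results of these data known, so list counts are descriptions with no set test.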

Additional observations from a re-analysis of the deposited data

How the results depend on the processing

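The counts of genes past the test and the fold changes of the named genes were recomputed under 17 alternatives (16 for *ACADSB*, which the filter at a mean of at least 50 counts removed): other scalings, DESeq2, limma on counts and on log2 FPKM, other filters, gene length as an offset, the replicate block and each library left out. The FPKM ratios, the order of levels, the length classes and the neighbouring genes were not recomputed. The calls of *RICTOR*, *AKT1* and *EIF4EBP1* held in all of them. Over the 9 tested genes, 135 of 153 values kept their direction and side of the threshold. With a 2-fold threshold, added after seeing the data for all but the count of the 10 genes, 1402 of all tested genes passed, 0 of the 10 (0 higher, 0 lower) and 6 pathway genes (6 higher, 0 lower). With gene length as an offset, 1 of the 10 was higher in place of 2, *MTOR* had −0.11, *RPTOR* −0.16, *TSC1* −0.0044 and *RHEB* 0.0465. *RPTOR*, close to 0, also turned to −0.0038 with DESeq2 size factors, −0.0078 with upper quartile factors, −0.0018 with DESeq2 and −0.0015 at a mean of at least 50 counts. With each library left out in turn, 1 to 3 of the 10 were higher (1 without ACADSB-/- replicate 3, 3 without WT replicate 2), *MTOR* had −0.0102 to 0.11, *RPTOR* −0.0403 to 0.061, *RHEB* −0.133 to 0.0155 and *EIF4EBP2* −0.21 to 0.0032; the cause was not tested. The replicate numbers did not pair the libraries: deviations from the group means correlated at −0.0402 to −0.0236 between libraries of one number, and 0 of 6 libraries correlated best with its own number. The replicate block gave 7806 genes past the test in place of 7990, the same 4 of the 10 genes, and ended the call of *TTI1* (adjusted p = 0.0557). *DEPTOR*, with 17 counts in all, was below the depth of these libraries for a test.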

Other observations

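WT replicate 2 was the WT library nearest to the mean of the ACADSB-/- libraries for 7 of the 9 tested genes, and for 44% of all tested genes. This is nearness to that mean, and not distance from the other WT libraries. Without WT replicate 2, 6 of the 9 passed the test in place of 4, with *RPS6KB1* higher and *TSC2* lower beside the other 4.

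The tested genes nearest to *RICTOR*, *EIF4EBP1* and *AKT1* on their chromosomes were looked up after the values were seen, and each set held higher and lower genes. Of the 10 nearest tested genes of *RICTOR*, 5 on each side, 5 were higher and 1 was lower, with a median log2 fold change of 0.36. Their range was −0.17 (*WDR70*, the lower gene) to 2.43 (*GDNF*, a growth factor). Among the higher ones were also *OSMR*, the oncostatin M receptor, at 0.41, and *PRKAA1*, a catalytic subunit of AMPK, at 0.32. Some of them are far from *RICTOR*: between gene midpoints, *OSMR* lay at 108 kb, *GDNF* at 1200 kb and *PRKAA1* at −1760 kb. Of the 10 nearest of *EIF4EBP1*, 3 were higher and 5 lower, with a median of −0.17 and a range of −0.77 (*RAB11FIP1*) to 0.70 (*PROSC*). Around *AKT1*, which was lower, 5 of the 10 nearest were higher and 3 lower, with a median of 0.29. Over all tested genes 29.7% were higher and 28.6% lower.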
